A study of Danio rerio with 20 samples.

Results

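The genes described here are the activators, or positive limb, of the circadian clock: BMAL, CLOCK and NPAS2, the transcription factors that switch the other clock genes on. They were picked by name, as the genes annotated as arntl, arntl1, arntl2, clock or npas2 with any paralogue letter. The rule uses no measured value, but it was chosen with earlier results of these data known. The rule found 6 of the 32105 genes in the counts table. The gene names table lists CLOCK for ENSDARG00000003631 and ENSDARG00000011703 and npas2 for ENSDARG00000016536. BMAL is the current name of arntl, and 3 members were found through it: BMAL1 for ENSDARG00000006791 and ENSDARG00000035732, and bmal2 for ENSDARG00000041381. The table gives no paralogue letter within either pair of BMAL1 or CLOCK genes, so the end of the identifier is added to the symbol (BMAL1-6791, BMAL1-35732, CLOCK-3631, CLOCK-11703).

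RNA came from muscle of male zebrafish of the strain labelled AB JxTu, in 20 libraries of 5 per group. Fish aged 1 year were left unperturbed (1y_control) or made to swim in a tunnel against a current (1y_swim). Fish aged 3 years were treated in the same 2 ways (3y_control and 3y_swim). Both control groups differ from the exercised groups of their age only in the tunnel label, and no genetic alteration is given for any group. The labels do not give the muscle taken, the length of the exercise, the number of fish per library or the time of day of sampling.

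BMAL and CLOCK are bHLH-PAS proteins that bind DNA as a pair, one BMAL with one CLOCK or NPAS2, at E-box sequences in the promoters of period, cryptochrome and REV-ERB genes. Period and cryptochrome proteins then repress the pair, and REV-ERB proteins (the NR1D genes) repress Bmal1 in mammals, while ROR proteins activate it. Skeletal muscle has a clock of its own, and transcripts of BMAL and of period genes peak at opposite times of day. Zebrafish keep paralogues of BMAL1 and of CLOCK. No sequence of these genes is shown here.

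Library totals ran from 31550213 to 48920974 counts. Of 11 matched skeletal muscle markers none was at 0, and they held 16.7 to 23.3% of all counts. The 6 genes matched for retina and pineal, tissues with strong rhythms, were each under 1 CPM in all 20 libraries (CPM is the count scaled to a common library size, here after TMM, a scaling that keeps a handful of abundant genes from shifting all others). The TMM factor was lowest in 1y_swim 3 (0.659) and 1y_swim 2 (0.795), and 0.837 to 1.25 in the other libraries. It ran from 1.04 to 1.25 in 1y_control and from 0.659 to 0.946 in 1y_swim, without overlap. At 3 years it ran from 1.05 to 1.17 in 3y_control and from 0.837 to 1.15 in 3y_swim. Tunnel changes at 1 year therefore depend on this scaling. The median log2 change of all genes there was -0.01 with TMM and -0.40 on library totals. Numbers within a group name libraries and pair nothing.

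One library, 1y_swim 3, stood apart in the clock activators. CLOCK-11703 had 0 counts there, which allows up to 0.123 CPM (3 counts), against 17 counts or more in every other library. For npas2 it held 4 counts, for BMAL1-35732 25 and for CLOCK-3631 26, each the lowest of the 20 libraries. By count bmal2 (12) was also the lowest of the 20 libraries there, but its 0.493 CPM after TMM was above that of 1y_swim 1 (0.409). BMAL1-6791 held 170 counts there, against its lowest count of 150 in 1y_swim 2. Its 6.99 CPM in 1y_swim 3 lay at the median of its group. Changes that 1y_swim 3 moved most are given with and without it.

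Levels of different genes were compared per length, as RPKM, the count divided by gene length and by each library's own total. BMAL1-6791 was the highest at 3.70 ± 1.1 RPKM (SD over 20 libraries), and it was above BMAL1-35732 in 20 of 20 libraries. BMAL1-35732 (1.36 ± 0.714) and CLOCK-3631 (1.34 ± 0.505) came next and were not separated, the first being higher in 12 of 20 libraries. Then followed npas2 (0.717 ± 0.416), the CLOCK relative that can take its place beside BMAL. It was below CLOCK-3631 in 19 of 20 libraries and above bmal2 in 18 of 20. The lowest were bmal2 (0.266 ± 0.162) and CLOCK-11703 (0.197 ± 0.15), with bmal2 higher in 14 of 20.

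The paralogues of a pair were unequal. BMAL1-6791 made up 74.4 ± 7.32% of the summed BMAL1 level per length (61.4 to 91.1% over 20 libraries), and CLOCK-3631 made up 88.3 ± 6.0% of the summed CLOCK level. The BMAL1-6791 share averaged 78.7 ± 4.38% among unexercised and 72.3 ± 11.7% among exercised 1-year fish (SD, n = 5). At 3 years it averaged 73.3 ± 6.04% without and 73.3 ± 5.53% with exercise. The highest share, 91.1%, was that of 1y_swim 3. The treatment of reads that fit both paralogues is not given in the sources used here, so the split within a pair is uncertain.

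**Figure D1:**
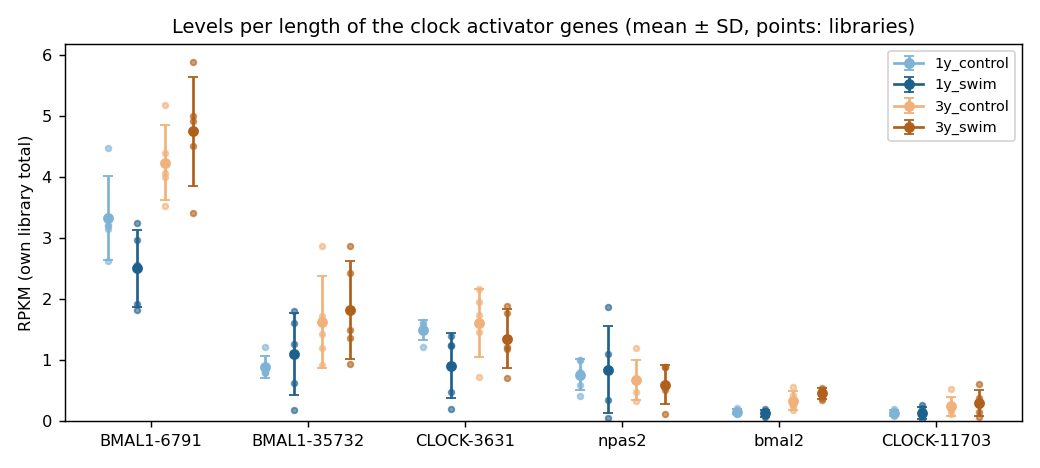
Level per length of the 6 clock activators, in RPKM of each library's own total (y axis), ordered by their mean over 20 libraries; small points are libraries, large points and bars the mean ± SD of 5 libraries per group. BMAL1-6791 lies above all others, and bmal2 and CLOCK-11703 lie lowest.

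Among exercised fish, muscle held more bmal2 and more BMAL1-6791 at 3 years than at 1 year, by more than the spread between libraries. From 1y_swim to 3y_swim bmal2 went from 0.702 ± 0.251 to 2.14 ± 0.342 CPM and BMAL1-6791 from 7.10 ± 1.15 to 11.27 ± 0.905 CPM (SD, n = 5). Neither CLOCK gene, BMAL1-35732 nor npas2 passed in any age comparison in edgeR. All 6 members passed the filter on low counts, and tests were adjusted over 17025 genes by the Benjamini-Hochberg method.

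The second BMAL family member, bmal2, encodes a protein that can pair with CLOCK as BMAL1 does. Its level in 1y_control was 0.675, 0.661, 0.520, 0.647 and 0.798 CPM in libraries 1 to 5. In 1y_swim it was 0.409, 0.739, 0.493, 0.856 and 1.01 CPM. The 1-year groups overlapped and no 1-year library exceeded 1.01 CPM. In 3y_control the values were 1.15, 0.815, 2.24, 1.11 and 1.93 CPM, and in 3y_swim 2.25, 2.21, 1.67, 1.97 and 2.59 CPM. Every 3y_swim library was above every 1y_swim library, and every 3y_control library was above every 1y_control library. The second separation was narrow, since 3y_control 2 (0.815 CPM) and 1y_control 5 (0.798 CPM) each held 37 counts. In RPKM of own totals these libraries stood at 0.181 and 0.208, so the control groups overlapped there. Counts behind the CPM values were 12 to 41 at 1 year and 37 to 108 at 3 years. The log2 change with age was 1.60 ± 0.29 (SE) among exercised fish (adjusted p = 0.00120, edgeR quasi-likelihood test). In fish without exercise it was 1.12 ± 0.29 and did not pass (adjusted p = 0.0590). Without 3y_control 1 or without 3y_control 2 it passed (1.20, adjusted p = 0.0430, and 1.28, adjusted p = 0.0432), as it did in DESeq2 (1.09, adjusted p = 0.0132) and voom (1.14, adjusted p = 0.0374). Without 3y_control 3 it was 0.91 (adjusted p = 0.154, edgeR), without 3y_control 5 1.00 (adjusted p = 0.136) and without 1y_control 1 and 1y_control 4 1.09 (adjusted p = 0.267). The age changes of bmal2 in the presence and absence of exercise were not distinguishable (interaction 0.47 ± 0.40, adjusted p = 0.639).

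For BMAL1-6791, the most abundant partner of CLOCK per length, the libraries of 1y_control held 6.77, 10.34, 6.09, 7.17 and 6.21 CPM. Those of 1y_swim held 8.15, 5.55, 6.99, 6.53 and 8.28 CPM. In 3y_control the values were 8.11, 9.12, 10.66, 9.98 and 9.26 CPM, and in 3y_swim 12.32, 11.48, 11.15, 9.84 and 11.55 CPM. All 5 libraries of 3y_swim exceeded all 5 of 1y_swim, whereas 3y_control and 1y_control overlapped through 1y_control 2. Among exercised fish the log2 change with age was 0.67 ± 0.15 (SE, adjusted p = 0.00479, edgeR). Among unexercised fish it was 0.36 ± 0.15 (adjusted p = 0.224), and 0.52 without 1y_control 2. With single libraries left out in turn, its adjusted p ran from 0.0523 to 0.380 (edgeR), so it did not pass. The interaction was 0.30 ± 0.21 (adjusted p = 0.544).

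The count of members is to be read against all genes. Among exercised fish 2 of 6 members rose with age and none fell, where 17.7% of all genes were called and 7.59% rose. Both of these members had all 3y_swim libraries above all 1y_swim libraries, as did 5.43% of all genes. In CPM, though not in RPKM, bmal2 also had all 3y_control libraries above all 1y_control libraries. In CPM 2.16% of all genes did so. Among unexercised fish 0 of 6 members were called, against 1.19% of all genes, with 3 members at an unadjusted p under 0.05 (15.9% of all genes). DESeq2 called 1 member, bmal2, and 730 of 16991 genes. With library totals in place of TMM, 2885 of 3816 called genes were higher with age among exercised fish, against 1293 of 3010 with TMM. The median of all genes then stood at 0.29 and bmal2 and BMAL1-6791 at 1.82 and 0.92. The members' log2 changes with age had a median of 0.59 with exercise and 0.62 without, beside 0.04 and 0.01 for all genes, and 5 of 6 were positive each time. Of all genes 52.6% and 50.7% were positive. Levels of the members were correlated, so these are not 6 separate signs. Averaged over both exercise states, bmal2 (1.36 ± 0.20, adjusted p = 0.000266) and BMAL1-6791 (0.52 ± 0.10, adjusted p = 0.00234) rose, where 20.2% of all genes were called and 9.57% rose. The comparisons with and without exercise use separate libraries, and the average uses both.

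BMAL1-35732, the other BMAL1 paralogue, spread more than BMAL1-6791 in 3 of the 4 groups. At 1 year its libraries held 2.59, 2.89, 2.78, 4.10 and 2.35 CPM without the tunnel and 5.21, 2.88, 1.03, 6.21 and 6.97 CPM with it. At 3 years they held 3.18, 4.12, 8.93, 4.86 and 5.93 CPM, and 9.06, 8.42, 5.11, 4.09 and 5.29 CPM. Of the 3y_control libraries 4 lay above the highest of 1y_control. Its log2 change with age was 0.88 ± 0.38 without exercise (adjusted p = 0.265) and 0.51 ± 0.38 with exercise (adjusted p = 0.376, edgeR). The latter was 0.26 without 1y_swim 3 and 0.065 without 1y_swim 2 and 1y_swim 3. The average of both, 0.69 ± 0.27, had adjusted p = 0.0735. It passed without 1y_swim 5 (0.80, adjusted p = 0.0491) and without 3y_control 1 (0.76, adjusted p = 0.0495), and in voom (0.60, adjusted p = 0.0457). Without 3y_control 3 it was 0.57 (adjusted p = 0.151, edgeR) and without 1y_swim 2 and 1y_swim 3 0.47 (adjusted p = 0.125).

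CLOCK-3631 encodes a CLOCK protein, a histone acetyltransferase in mammals that binds DNA with BMAL. Its libraries held 4.87, 5.40, 5.66, 5.56 and 3.56 CPM in 1y_control and 5.16, 2.18, 1.07, 5.41 and 4.85 CPM in 1y_swim. They held 2.54, 6.06, 6.78, 6.76 and 5.04 CPM in 3y_control and 5.99, 6.21, 4.17, 3.11 and 4.62 CPM in 3y_swim. Its mean was 5.01 ± 0.867 CPM without and 3.73 ± 1.97 CPM with the tunnel at 1 year. At 3 years it was 5.44 ± 1.77 and 4.82 ± 1.29 CPM, and the groups overlapped. The age change was 0.12 ± 0.34 without and 0.36 ± 0.35 with exercise, which leaves an interval of 2 SE from -0.57 to 0.81 and from -0.33 to 1.05. With exercise it was 0.13 without 1y_swim 3 and -0.087 without 1y_swim 2 and 1y_swim 3. CLOCK-11703, its weaker paralogue, had means of 0.777 ± 0.308, 0.929 ± 0.717, 1.42 ± 0.845 and 1.78 ± 1.14 CPM in the same order of groups, with age changes of 0.87 ± 0.64 and 0.92 ± 0.64 (adjusted p = 0.528 and 0.345, edgeR). The change with exercise was 0.61 without 1y_swim 3 and 0.44 without 1y_swim 2 and 1y_swim 3.

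In npas2 the 1y_control libraries held 1.42, 1.04, 2.57, 1.99 and 2.13 CPM, and the 1y_swim libraries 2.61, 1.18, 0.164, 3.10 and 5.32 CPM. At 3 years the controls held 0.853, 1.76, 1.54, 3.01 and 1.21 CPM and the exercised fish 1.36, 2.26, 1.26, 0.361 and 2.54 CPM. The highest and the lowest of all 20 were both in 1y_swim. The means were 1.83 ± 0.604, 2.47 ± 1.97, 1.68 ± 0.821 and 1.56 ± 0.868 CPM. Its age changes were -0.12 ± 0.58 and -0.68 ± 0.58 (adjusted p = 0.936 and 0.449), the only negative ones of the 6. Within 2 SE the unexercised change ran from -1.28 to 1.03 and the exercised one from -1.84 to 0.48. The exercised change was -0.98 without 1y_swim 3, -1.24 without 1y_swim 2 and 1y_swim 3, and -0.20 without 1y_swim 5.

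**Figure D2:**
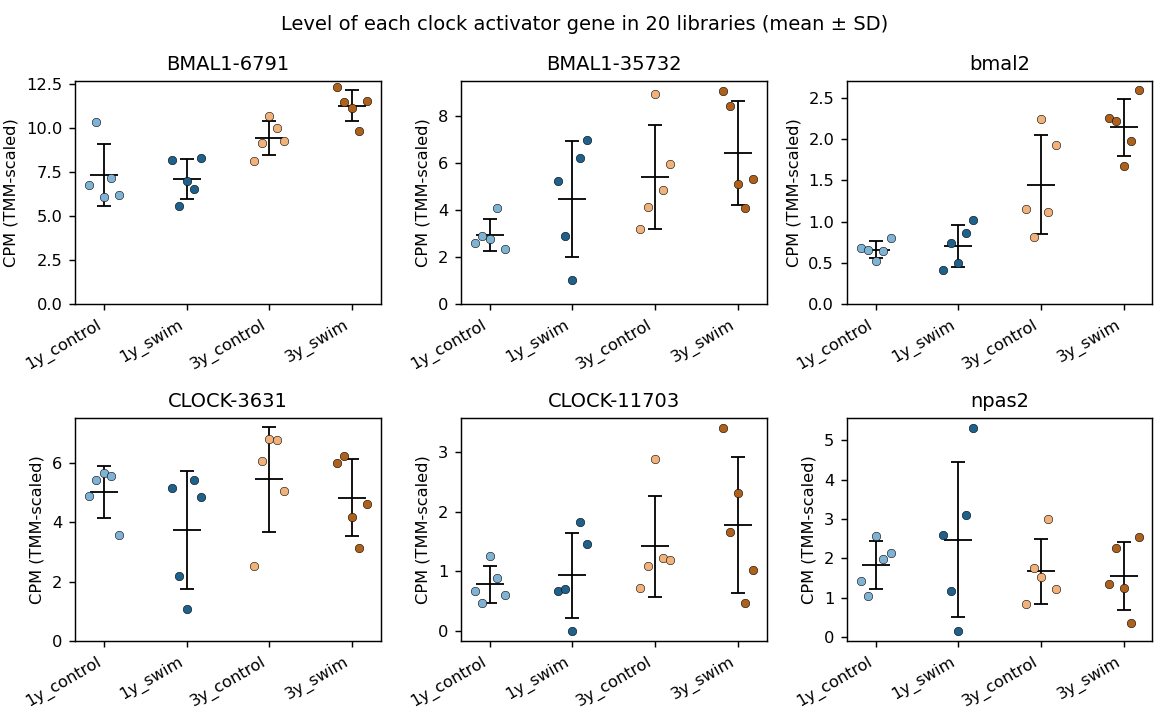
TMM-scaled CPM (y axis) of each clock activator in the 5 libraries of each group (points, in library order), with mean ± SD (bars). For bmal2 and BMAL1-6791 all 3y_swim points lie above all 1y_swim points, and the CLOCK genes and npas2 overlap between groups.

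Markers of other cell types moved beside the age difference among exercised fish. The summed level of 8 leukocyte markers was 93.7 to 219 CPM in 1y_swim and 265 to 390 in 3y_swim, and 5 of the 8 rose. The 9 exocrine pancreas markers summed to 29.0 to 208 CPM in 1y_swim and 0.851 to 12.2 in 3y_swim, and all 8 that were tested fell. Of 10 tested epidermis markers 0 passed in edgeR (3 at an unadjusted p under 0.05, and 2 called by DESeq2), with sums of 501 to 843 and 547 to 3360 CPM. Of 12 nerve and glia markers 1 rose. No gene of these 4 lists was at 0 in all 20 libraries. Without exercise 0 of 8 leukocyte, 0 of 8 pancreas and 0 of 10 epidermis markers passed with age in edgeR (1, 2 and 2 at an unadjusted p under 0.05, and 0, 0 and 1 by DESeq2). Of these, 8 of 8 pancreas markers and 7 of 8 leukocyte markers had positive changes, with medians of 1.18 and 0.22. Nerve and glia markers passed in 0 of 12 cases without exercise in edgeR (4 at an unadjusted p under 0.05, and 1 by DESeq2). Their changes were positive in 3 of 12, with a median of -0.55. With the libraries of highest epidermis sum left out (1y_control 5, 3y_swim 1 and 3y_swim 3), the age changes among exercised fish were 1.70 for bmal2 (adjusted p = 0.00909) and 0.65 for BMAL1-6791 (adjusted p = 0.0361). Without 1y_swim 2 and 1y_swim 3, the lowest in TMM factor, they were 1.49 (adjusted p = 0.0128) and 0.56 (adjusted p = 0.0367). The part of leukocyte and pancreas RNA in these changes was not tested. In bulk muscle, fewer cells of a type and less RNA per cell cannot be told apart.

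Some of the other clock genes changed with age as well. These lists were chosen with earlier results known, and 64 of their 73 matched genes were tested. Without exercise 4 rose, 13 fell and 47 did not pass with age, where 1.19% of all genes were called. Among exercised fish 4 rose, 22 fell and 38 did not pass, where 17.7% of all genes were called. In the list of periods and cryptochromes 6 of 11 fell in each comparison. On the log2 scale PER1 (ENSDARG00000012499) fell by 1.75 without and by 0.94 with exercise, and PER2 fell by 1.69 and by 1.03. The only member of that list that rose was cry3b, without exercise (1.07 ± 0.20). Of the 9 tested REV-ERB and ROR genes 3 fell and 1 rose in each comparison. NR1D2, a REV-ERB gene, fell from 40.4 ± 4.03 to 18.1 ± 6.61 CPM without exercise and from 27.8 ± 6.55 to 11.44 ± 2.56 CPM with it. Its log2 changes were -1.16 ± 0.22 and -1.28 ± 0.22 (adjusted p = 0.0161 and 0.000985, edgeR). rorcb, a ROR gene, went from 4.40 ± 2.13 to 39.3 ± 9.47 CPM without exercise (3.15 ± 0.43) and from 7.78 ± 4.74 to 44.0 ± 20.8 CPM with it (2.5 ± 0.42). RORA (ENSDARG00000031768) fell by 1.37 and by 0.95.

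Output genes of the clock were split. dbpa, a PAR bZIP gene whose mammalian relative DBP is driven by CLOCK and BMAL, fell, with log2 changes of -2.72 without and -2.02 with exercise. NFIL3 and nfil3-5, repressors of the E4BP4 kind that act against PAR bZIP proteins, rose by 2.14 and 2.86 without exercise and by 2.77 and 2.68 with it. Their relative nfil3-6 changed the other way among exercised fish (-1.71 ± 0.50, adjusted p = 0.0242, edgeR). Of the 9 tested genes of this list 2 rose, 1 fell and 6 did not pass without exercise, and 2 rose, 3 fell and 4 did not pass with it. ciarta, of a family whose mammalian member represses CLOCK and BMAL, fell by 2.12 and by 1.83. Of the 17 clock genes called without exercise 4 passed without 1y_control 1 and 1y_control 4 (an earlier analysis named these for nerve markers, which here summed to 693 and 644 CPM there and to 437 to 775 CPM in the rest of the group), with the 17 log2 changes all of the same sign as before, such as -1.71 for PER1 (ENSDARG00000012499), -1.93 for NR1D1 and 2.63 for nfil3-5. Over all genes, 9 of 17755 were called without 1y_control 1 and 1y_control 4, against 203 of 17025 with all libraries. In the other settings tried for the 17 clock genes (RLE sizes, library totals, DESeq2, and without the low-TMM or the epidermis libraries) 14 to 17 passed. Of the 26 called with exercise 13 passed on library totals, 12 without the libraries highest in epidermis markers and 19 without 1y_swim 2 and 1y_swim 3. None of the 26 changed sign in these 3 settings. Over all genes 3816, 1429 and 2044 were called in the same settings, against 3010 in the main fit. Clock transcripts change over the day, and since no sampling time is given for any library, a difference in time of day between the age groups was not tested.

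The swim tunnel gave no call in any clock activator at either age. At 1 year 0 of 6 members passed (1.14% of all genes were called), none reached an unadjusted p under 0.05, and DESeq2 called none. At 3 years 0 of 6 passed (0.0705% of all genes), again with none under 0.05 unadjusted and none by DESeq2. The widest 1-year change was that of BMAL1-35732, 0.61 ± 0.38 (adjusted p = 0.387, edgeR), from 2.94 ± 0.678 to 4.46 ± 2.46 CPM. Without 1y_swim 3 it was 0.86. CLOCK-3631 had -0.41 ± 0.35, and -0.18 without 1y_swim 3. Over the 13 settings tried beside leaving out single libraries, its change ran from -0.92 to 0.035 and did not pass. For npas2 the change was 0.45 ± 0.57, with 0.75 without 1y_swim 3 and 1.01 without 1y_swim 2 and 1y_swim 3. Without 1y_swim 5, where npas2 stood at 5.32 CPM, it was -0.03. CLOCK-11703 had 0.28 ± 0.64, and 0.59 without 1y_swim 3 and -0.10 without 1y_swim 4.

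The narrowest interval was that of BMAL1-6791, whose change with the tunnel at 1 year was -0.04 ± 0.15, or -0.34 to 0.25 within 2 SE. For bmal2 it was 0.09 ± 0.29. At 3 years bmal2 had 0.56 ± 0.28 (adjusted p = 0.561, edgeR) and BMAL1-6791 0.26 ± 0.15 (adjusted p = 0.623). Of the 5 libraries of 3y_swim, 4 were above all of 3y_control for BMAL1-6791 and 2 for bmal2. The other 4 members lay between -0.17 and 0.33. The interaction of age and exercise passed for 0 of 6 members in edgeR (0.335% of all genes were called), with none under an unadjusted p of 0.05 and none by DESeq2. Averaged over both ages, the tunnel effect passed for 0 of 6 in edgeR and DESeq2 (0.628% of all genes), with none under 0.05 unadjusted.

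Some other clock genes were called with the tunnel at 1 year. Of 64 tested, 2 rose and 1 fell, where 1.14% of all genes were called. CRY1 (ENSDARG00000011583) and cry3b, cryptochromes, rose by 1.72 ± 0.28 and 1.36 ± 0.20, and NR1D1, a REV-ERB gene, fell by 2.14 on the log2 scale. Without 1y_swim 2 and 1y_swim 3 they stood at 1.41, 1.35 and -2.24 and did not pass (adjusted p = 0.163, 0.10 and 0.141, edgeR), nor did any gene (1668 at an unadjusted p under 0.05). The summed pancreas markers also moved with the tunnel at 1 year (1.82 to 12.0 CPM without and 29.0 to 208 with it, 7 of 8 rose). The summed skeletal muscle markers were 134277 to 186365 CPM without and 190361 to 306806 CPM with it, highest in 1y_swim 3. Of the 11 muscle markers 0 passed in edgeR or DESeq2 (6 at an unadjusted p under 0.05 in edgeR). The part of pancreas and muscle RNA in these changes was not tested. A difference in time of day between tunnel and control fish was not tested either, since no sampling time is given.

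**Figure D3:**
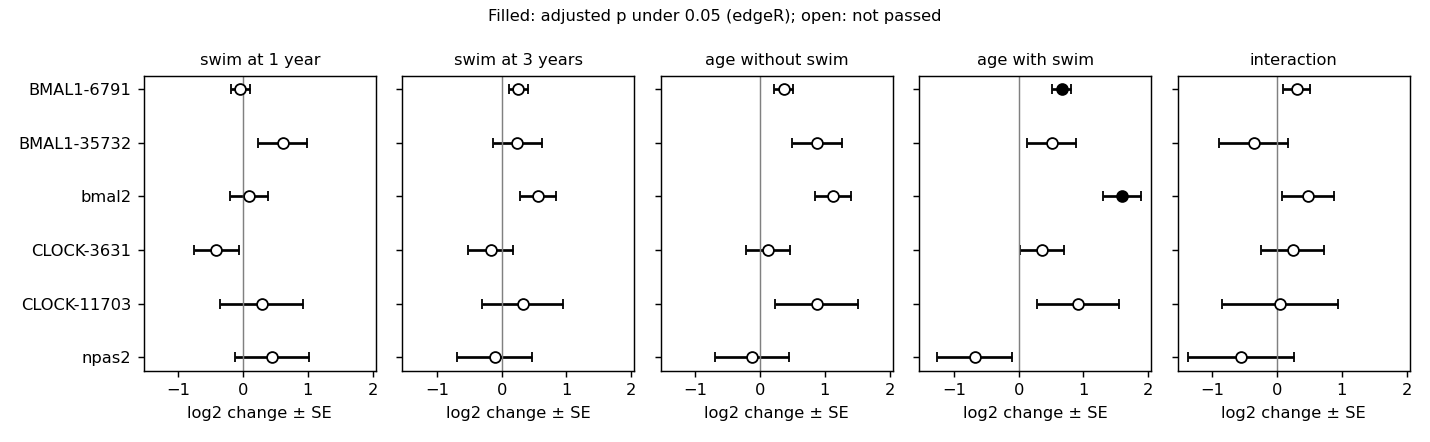
Log2 change ± SE (x axis) of each clock activator in 4 pairwise comparisons (tunnel at 1 and 3 years, age without and with exercise) and the interaction; filled points passed at adjusted p under 0.05 (edgeR). The filled points are bmal2 (1.60) and BMAL1-6791 (0.67) in the age effect with exercise.

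Within groups the spread of the members differed widely. Over the 4 groups the coefficient of variation was 8.03 to 23.9% for BMAL1-6791, 14.9 to 41.6% for bmal2 and 17.3 to 52.9% for CLOCK-3631. It was 23.1 to 55.1% for BMAL1-35732, 39.6 to 77.2% for CLOCK-11703 and 33.0 to 79.5% for npas2. In 1y_control that of BMAL1-6791 (23.9%) was above that of CLOCK-3631 (17.3%). The values moved together in single libraries. In 3y_swim 4, npas2 (0.361 CPM), CLOCK-11703 (0.473), CLOCK-3631 (3.11) and BMAL1-35732 (4.09) were each the lowest of their group. 3y_control 1 was likewise the lowest of its group in BMAL1-35732, CLOCK-3631, CLOCK-11703 and npas2. Both were also lowest of their group in BMAL1-6791 (9.84 and 8.11 CPM), by smaller margins.

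**Figure D4:**
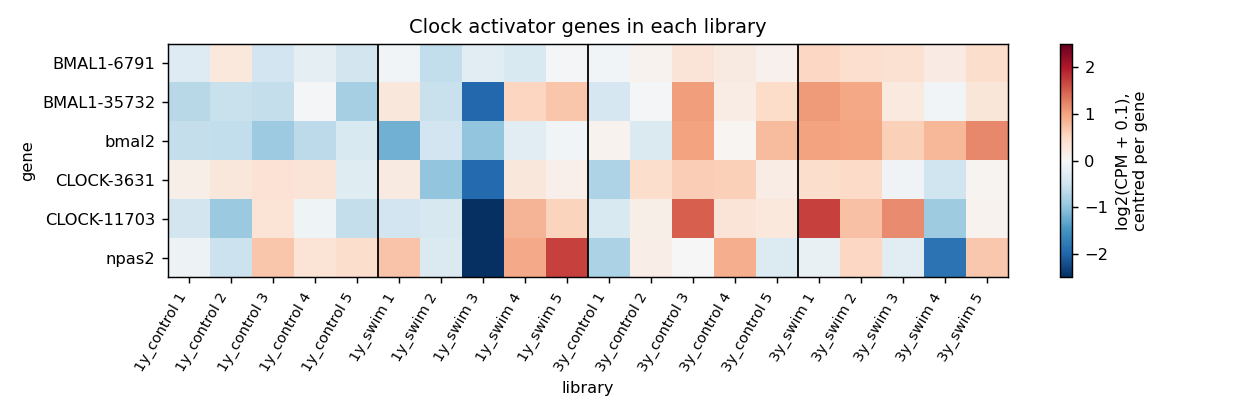
Level of each clock activator (rows) in each library (columns, lines between groups), as log2(CPM + 0.1) centred per gene. 1y_swim 3 is low in BMAL1-35732, both CLOCK genes and npas2. The group means of bmal2 and BMAL1-6791 are lower at 1 year than at 3 years, while single libraries of the ages overlap.

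Correlations were computed over the 20 libraries on log2 CPM for 33 pairs, 15 between members and 18 between a member and the REV-ERB genes NR1D1, nr1d2a and NR1D2, with 100000 permutations and adjustment over the 33. Of the 15 member pairs 14 were positive and 10 passed, 7 by Spearman's rho. For deviations from group means, permuted within groups, 6 passed, and all 6 were among BMAL1-35732, CLOCK-3631, CLOCK-11703 and npas2. Those deviations still include 1y_swim 3, which was low in all of these genes. A prior count of 2 was added before taking logarithms. CLOCK-11703 had 0 counts in 1y_swim 3, so its log2 CPM there (-4.31) depends on that prior count. BMAL1-35732 with CLOCK-11703 gave r = 0.865 and rho = 0.776 (permutation p = 1e-05, the smallest these permutations can give, and p = 1e-04; adjusted p = 0.000165 and 0.00165). It gave r = 0.734 without the 2 libraries farthest from the median of BMAL1-35732 (1y_swim 3 and 3y_swim 1) and r = 0.884 for deviations (permutation, adjusted p = 0.0028). CLOCK-3631 with BMAL1-35732 gave r = 0.731 and rho = 0.547 (permutation p = 0.00055 and 0.013; adjusted 0.00302 and 0.043) and r = 0.493 without the same 2 libraries. Both CLOCK genes gave r = 0.792 and rho = 0.595 (permutation p = 0.00032 and 0.00652; adjusted 0.00211 and 0.0269), and r = 0.509 without 1y_swim 3 and 1y_swim 2. Of the 18 pairs with REV-ERB genes 3 passed, all of them negative and with NR1D2 (BMAL1-6791, BMAL1-35732 and bmal2), and 0 passed for deviations (1 at an unadjusted permutation p under 0.05). The REV-ERB genes did not share a direction. For deviations every member gave a positive r with NR1D1 (0.093 to 0.362) and with nr1d2a (0.027 to 0.256). With NR1D2 every member gave a negative r (-0.571 to -0.163). Over all 33 pairs 13 passed, and 7 without 1y_swim 3.

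The CLOCK genes also followed the TMM factor. In a family of 6 correlations chosen after the values were seen, log2 CPM and log2 TMM factor gave r = 0.718 and rho = 0.475 for CLOCK-3631 (permutation p = 0.00168 and 0.0356; adjusted for r 0.00975) and r = 0.682 and rho = 0.405 for CLOCK-11703 (permutation p = 0.00325 and 0.0783; adjusted for r 0.00975). Without 1y_swim 3 and 1y_swim 2 these were r = 0.217 and 0.301, so the pooled relation rests on those libraries. For deviations from group means, which still include 1y_swim 2 and 1y_swim 3, r was 0.668 and 0.839 for the CLOCK genes. For BMAL1-35732 and npas2 it was 0.774 and 0.731. Pooled over the libraries BMAL1-35732 and npas2 gave r = 0.436 and 0.493 (permutation p = 0.0562 and 0.0313, adjusted 0.0844 and 0.0626). Without 1y_swim 3 and 1y_swim 2 they gave -0.12 and 0.04. BMAL1-6791 and bmal2, the members that rose with age, gave r = 0.268 and 0.302 with the TMM factor (rho = 0.235 and 0.266; permutation p = 0.255 and 0.196 for r, 0.315 and 0.253 for rho; adjusted for r 0.255 and 0.236), and -0.05 and 0.06 without these 2 libraries. For deviations from group means they gave r = 0.208 and 0.407. With log2 RPKM of own totals, which are not divided by the TMM factor, they gave r = 0.672 and 0.479. The other members then gave r = 0.594 to 0.831.

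BMAL1-6791 and bmal2 differed with age, so their relation is given within ages. It was r = -0.07 and rho = -0.14 over the 10 libraries of 1 year (permutation p = 0.839 and 0.709; adjusted for r 0.966). Over the 10 of 3 years it was r = 0.701 and rho = 0.770 (permutation p = 0.0252 and 0.0127; adjusted for r 0.0833). For bmal2 with NR1D2 it was r = -0.43 and rho = -0.30 at 1 year (permutation p = 0.209 and 0.406; adjusted for r 0.689), and r = -0.73 and rho = -0.53 at 3 years (permutation p = 0.0143 and 0.123; adjusted for r 0.0824). At 3 years BMAL1-6791 gave r = -0.733 with NR1D2 and r = 0.737 with nr1d2a (permutation p = 0.0147 and 0.0141, adjusted for r 0.0824 for both). None of these passed within an age after adjustment.

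**Figure D5:**
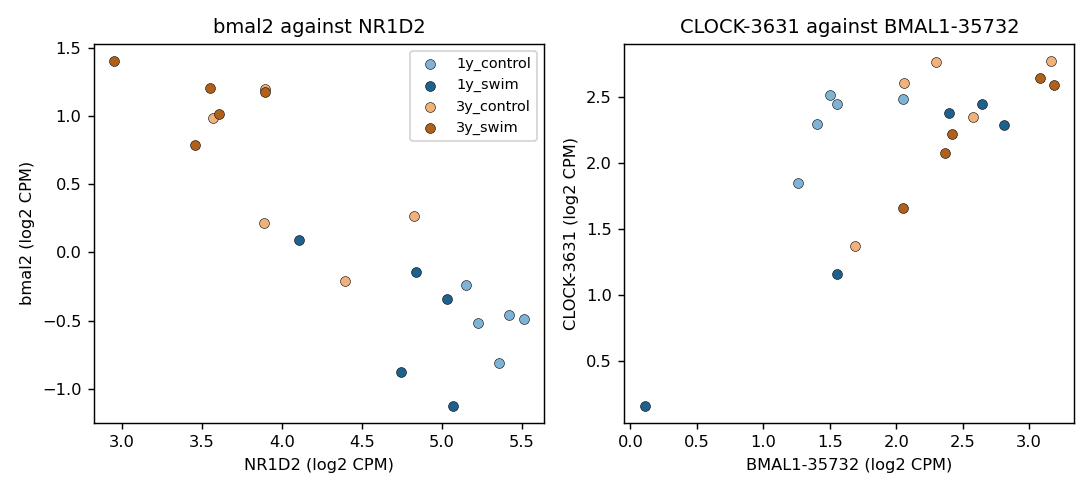
Log2 CPM of bmal2 against NR1D2 (left) and of CLOCK-3631 against BMAL1-35732 (right), 1 point per library, coloured by group. On the left most 3-year libraries lie at high bmal2 and low NR1D2 and the ages overlap in part, with r of -0.43 and -0.73 within 1 and 3 years; on the right 1y_swim 3 lies far below the rest.

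The genes most like each member over the 20 libraries were taken by Pearson's r of log2 CPM, as a description with no test. The search covered 6980 genes with a mean log2 CPM of 2 or more. It left out the members themselves and genes with no symbol or only a clone-type name. The values compared come from the same libraries and share their scaling. For bmal2 the highest were ITIH5 (0.833), nfil3-5 (0.824) and IMPDH1 (0.822), and the lowest WDR37 (-0.883), NR1D2 (-0.878) and synj2bp (-0.877). For deviations from group means these stood at 0.590, 0.282 and 0.257, and to -0.740, -0.571 and -0.542. BMAL1-6791 was most like IMPDH1 (0.844) and UBALD1 (0.833) and least like LYPLA2 (-0.855), DEPTOR (-0.850) and SLC16A10 (-0.814), with 0.424 to 0.490 and -0.630 to -0.456 within groups. IMPDH1 was thus among the nearest genes of both members that rose with age.

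The other 4 members had nearest genes whose r was also high for deviations from group means. Those deviations still include 1y_swim 3, the lowest of all libraries in each of these 4 members. The r values were not computed without that library, so its part in them was not tested. BMAL1-35732 was most like TBC1D4 (0.908, and 0.941 within groups), tbx21 (0.842) and ehbp1l1b (0.837), and least like NONO (-0.867), MGST1 (-0.860) and CIAO1 (-0.855). CLOCK-3631 was most like PHF8 (0.962, and 0.968 within groups), GPRC5B (0.962) and sdc2 (0.961), and least like SNRPC (-0.964), GNG5 (-0.960) and POLR2E (-0.957). For CLOCK-11703 the highest were CLCN1 (0.895), KIAA0319L (0.895) and TBC1D4 (0.873), and the lowest PSMA6 (-0.886), SLC7A6OS (-0.882) and eif1axa (-0.879). For npas2 they were AFF4 (0.920), SLC2A1 (0.920) and AGAP1 (0.903), and STEEP1 (-0.872), cst14a.2 (-0.870) and SARNP (-0.861). TBC1D4 was shared by BMAL1-35732 and CLOCK-11703.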

How the data were processed

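Muscle RNA of 20 male zebrafish libraries was sequenced. The submitters' processing notes name the build GRCz10, featureCounts 1.4.6-p4, STAR 2.4.1d and bcl2fastq 1.8.4; annotation release, strand setting and multi-mapping reads are not given in the sources used here, so paralogues and overlapping genes can share reads. Raw read counts per gene, as deposited by the authors, were the input. A further deposited table, named RPKM, was treated as a score: successive rows turned out to be divided by the totals of successive libraries (over 406 genes the median CV of the implied length was 1.17e-06 on that reading and 0.133 with own totals). It served as an alternative and gave the authors' gene lengths, which came out as 1 whole number for 5 members and 2 candidates for CLOCK-11703 (6570 used); these and own totals gave RPKM.

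With edgeR 4.0.16, filterByExpr kept 17025 of 32105 genes, which were scaled by TMM and fitted with 4 group means over all 20 libraries, with robust quasi-likelihood tests in R 4.3.3. Genes with an adjusted p under 0.05 are called. The common dispersion was 0.163. Scripts were tested on simulated data. Chi-square per degree of freedom lay between 29.6 and 173 in all 40 replicate pairs, and no library was treated as a duplicate; p-values measure the spread between these libraries, whose sources are not further described. Alternatives included DESeq2 1.42.0, voom and limma-trend of limma 3.58.1, other scalings and filters, and leaving out libraries. Floors cover counting error only. Of 32105 identifiers 26269 had a symbol; of 92 clock list names 79 were matched, without regard to case and, if needed, without the paralogue letter. The members, lists and naming rules were chosen with earlier results of these data known. Named are all members, called genes of the clock lists as examples beside their counts, and the 3 genes with the highest and lowest r for each member, of which 1 is not reported here. Promoter motifs were not analysed here.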

Additional observations from a re-analysis of the deposited data

Results flagged for a closer look

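In the 24 sets of 5 libraries (6 genes in 4 groups), 2 libraries lay far from the rest of their group, with a gap of more than 0.71 of the group's range; chance alone flags about 1 set in 20. BMAL1-6791 stood at 10.34 CPM in 1y_control 2, where the other libraries of that group held 6.09 to 7.17 CPM. CLOCK-11703 stood at 2.89 CPM in 3y_control 3, where the others held 0.714 to 1.23 CPM.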

How the results depend on the processing

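No paired analysis was possible because the labels give no replicate numbers; those used here only name libraries. The number of members called with age among exercised fish stayed at 2 without each library in turn and fell to 1 on the deposited scaled values (all 3 settings); in the filtered settings bmal2 was not among the genes kept, and without a filter BMAL1-6791 missed (0.72, adjusted p = 0.0565). Over all genes 2198 to 3278 were called without single libraries, and 1238 and 1325 of 10392 and 1260 of 26604 on scaled values. Averaged over exercise, 2 to 3 members were called without single libraries, where 2810 to 3797 genes were called. In each scaled-value setting 1 member was called (1541 and 1536 of 10392 genes, and 1644 of 26604). With age among unexercised fish 1 member, bmal2, was called by DESeq2, by voom with quality weights and with at least 1 CPM in 5 libraries. These settings called 730 of 16991, 682 of 17025 and 237 of 13224 genes. Without single libraries 0 to 1 members were called, where 56 to 403 genes were called. No member was called for the tunnel or the interaction under any alternative run. Of the 33 pairs, 6 passed for deviations, 8 without the libraries of low TMM factor (1y_swim 2 and 3), and 7 to 13 without single libraries.

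Directions that reversed belonged to changes that did not pass. At 1 year the tunnel change of BMAL1-6791 was 0.046 by voom and 0.065 without the low-TMM libraries, and -0.13 to 0.12 without single libraries. That of bmal2 was -0.27 on library totals, -0.032 on unfiltered scaled values, and -0.079 to 0.24 without single libraries. CLOCK-3631 had 0.035 without the low-TMM libraries. Without single libraries CLOCK-11703 ran from -0.098 to 0.59 and npas2 from -0.031 to 0.75, and npas2 had -0.27 on scaled values at pseudocount 0.1. At 3 years, without the libraries high in skin markers, CLOCK-11703 had -0.42 and npas2 0.046, and without single libraries -0.050 to 0.76 and -0.35 to 0.21. With age, CLOCK-3631 had -0.0060 without exercise (pseudocount 0.1) and -0.087 with it (low-TMM libraries left out), and npas2 without exercise -0.44 to 0.044 without single libraries. The interaction of BMAL1-35732 was 0.047, 0.17 and 0.047 on scaled values, and that of npas2 0.0035 at pseudocount 0.1. CLOCK-3631 had -0.20 without the low-TMM libraries, and CLOCK-11703 -0.61 without the skin-marker and -0.42 without the low-TMM libraries, and -0.33 to 0.47 without single libraries. Averaged over ages, the tunnel change of BMAL1-6791 was -0.12 on library totals and -0.060, -0.091 and -0.060 on scaled values. That of CLOCK-11703 was -0.11 without the skin-marker libraries. That of npas2 was -0.010 on library totals, -0.028, -0.27 and -0.028 on scaled values, and -0.069 to 0.33 without single libraries. The cause was not tested.

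Over all genes, DESeq2 called 906, 103 and 730 for the tunnel at 1 and 3 years and age without exercise, against 194, 12 and 203 in edgeR. Without the low-TMM libraries edgeR called 0 for the tunnel at 1 year (1668 at an unadjusted p under 0.05), and on library totals 1748, of which 78 were higher (135 of 194 with TMM). CLOCK-11703 and bmal2 rest on few counts, which limits what their changes can show.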

Other observations

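Other genes of the bHLH-PAS family, to which BMAL, CLOCK and NPAS2 belong, were tested in 14 of 21 cases. With age among exercised fish 1 rose and 4 fell, where 17.7% of all genes were called. Without exercise 0 rose and 1 fell, where 1.19% of all genes were called. ARNT2, a general bHLH-PAS partner, went from 9.30 ± 2.61 to 19.1 ± 5.37 CPM among exercised fish (log2 change 1.04 ± 0.27, adjusted p = 0.0135, edgeR). It passed in DESeq2 (1.03, adjusted p = 0.00293). In edgeR it missed without the skin-marker libraries (0.89, adjusted p = 0.0974) and without the low-TMM libraries (0.87, adjusted p = 0.0936). EPAS1 (ENSDARG00000057671), a hypoxia-inducible factor, went from 57.6 ± 19.7 to 24.3 ± 7.41 CPM (-1.24 ± 0.23, adjusted p = 0.00146). HIF1A, another hypoxia-inducible factor, fell from 85.9 ± 7.81 to 60.4 ± 5.54 CPM without exercise (-0.51 ± 0.11, adjusted p = 0.0238, edgeR). It passed in DESeq2 (-0.53, adjusted p = 2.0e-05). In edgeR it missed on library totals (-0.53, adjusted p = 0.0839) and without 1y_control 1 and 1y_control 4 (-0.55, adjusted p = 0.118).

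Among 12 clock kinases and ligases 0 rose and 3 fell with age among exercised fish, where 17.7% of all genes were called. They were GSK3B (-0.80 ± 0.14), GSK3A (-0.29 ± 0.08) and csnk1da (-0.28 ± 0.09), kinases that phosphorylate clock proteins. On library totals in place of TMM they stood at -0.56 (adjusted p = 0.0419), -0.039 (0.834) and -0.017 (0.926, edgeR).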
